A study of Homo sapiens with 6 samples.

Results

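The 10 genes described here encode the subunits of the transcription factor AP-1 and companion immediate early gene products, and they were taken by name from the deposited FPKM table of 28563 genes by matching its Ensembl identifiers to GENCODE symbols. They are the FOS family genes FOS, FOSB, FOSL1 and FOSL2, the JUN family genes JUN, JUNB and JUND, the zinc finger factor genes EGR1 and KLF6, and the phosphatase gene DUSP1. No measured value entered the choice, and all 10 were listed in the table. RNA was sequenced from cells labelled HepG2, an established line grown from a human liver tumour. Of 6 plates of this line, 3 received 336 µM polydatin (PD), a plant glucoside of resveratrol dissolved in DMSO, and 3 received DMSO alone, each for 24 h, and each plate gave 1 library. The dose is the one in the sample labels, and the methods of the study give a slightly lower one. All plates were of 1 cell line at about the same confluence, and no earlier time after the addition of PD was sampled.

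AP-1 binds DNA as a dimer of basic leucine zipper (bZIP) proteins, in which a JUN family protein pairs with another JUN or with a FOS family protein, whereas FOS family proteins do not form stable pairs among themselves. Immediate early genes are those that a cell switches on within minutes of a growth factor or stress signal, without first making new protein, and most of them fall back within hours. The ERK, JNK and p38 kinases drive this burst through factors already bound at the promoters, and DUSP1 removes the activating phosphates from those kinases. In the liver, JUN is required for hepatocytes to divide after tissue loss, and it is active in experimental liver tumours. A library taken after 24 h records the level of these genes at that time, and whether a burst came before it was not measured.

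Sequences before the annotated start are shown for 8 of the 10 genes, because they hold matches to elements at which SRF, CRE-binding factors or the TATA-binding protein are known to act. They come from RefSeq promoters on GRCh38.p14, which covered 9 of the 10 genes, FOSL1 being the one without an entry, and both strands of the 250 bases before each start were searched for 5 named motifs and for 1 looser spacing added later. EGR1 held 2 copies of the CArG box, the core of the serum response element (SRE) to which SRF binds, at 105 to 96 and at 83 to 74 bases before its start. The stretch chr5:138465349-138465428 on the plus strand is printed with both boxes in capitals.
EGR1: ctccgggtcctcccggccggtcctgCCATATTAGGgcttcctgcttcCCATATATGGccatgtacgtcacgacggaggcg
A CArG box occurred in 1.16% of 35116 promoters of this length, and none was found in the other 8 windows. Elements farther from the start than 250 bases, or with letters other than those of the motifs, were outside this search. The absence of a match therefore does not show that a gene lacks such an element. The full cyclic AMP response element (CRE), TGACGTCA, was found before DUSP1 and JUND, against 1.65% of all promoters. The looser spacing TGANNTCA, which includes the CRE, was found before JUN, KLF6, JUND and DUSP1, against 10.1% of all promoters. The copies before JUN and KLF6 had the same letters, TGACATCA. In the next sequences, all from the minus strand, capitals mark TGANNTCA matches and, in DUSP1, also the TATA box. They are chr1:58784078-58784157 for JUN, chr10:3785340-3785409 for KLF6, chr19:18281653-18281842 for JUND and chr5:172771216-172771345 for DUSP1.
JUN: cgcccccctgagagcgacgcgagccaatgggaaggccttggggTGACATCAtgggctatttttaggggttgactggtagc
KLF6: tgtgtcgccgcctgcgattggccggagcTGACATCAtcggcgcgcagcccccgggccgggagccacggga
JUND: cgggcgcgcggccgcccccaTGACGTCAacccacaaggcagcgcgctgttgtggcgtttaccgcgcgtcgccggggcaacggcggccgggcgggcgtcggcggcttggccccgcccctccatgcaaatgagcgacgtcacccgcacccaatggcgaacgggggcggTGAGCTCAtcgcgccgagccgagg
DUSP1: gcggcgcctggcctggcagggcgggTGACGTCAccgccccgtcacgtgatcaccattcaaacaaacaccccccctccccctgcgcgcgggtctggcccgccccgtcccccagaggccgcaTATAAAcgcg
The TATA box, TATAAA, stood 25 to 33 bases before the start of FOS, FOSB, JUNB and DUSP1. Of all promoters, 10.7% held these letters anywhere in the 250 bases on either strand, and the share with them at this position was not counted. It is in capitals in the plus strand stretches chr14:75278728-75278807 of FOS, chr19:12791386-12791465 of JUNB and chr19:45467896-45467975 of FOSB.
FOS: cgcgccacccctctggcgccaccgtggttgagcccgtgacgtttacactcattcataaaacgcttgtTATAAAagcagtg
JUNB: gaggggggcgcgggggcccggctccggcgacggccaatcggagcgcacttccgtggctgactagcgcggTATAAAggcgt
FOSB: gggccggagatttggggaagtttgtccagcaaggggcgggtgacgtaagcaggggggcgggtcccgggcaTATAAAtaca
No window held the AP-1 site known as the TPA response element (TRE, TGANTCA, 6.57% of promoters) or the EGR site (GCGTGGGCG, 0.72% of promoters), and FOSL2 held none of the motifs. A match is a run of letters and does not show that a protein is bound there.

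**Figure D1:**
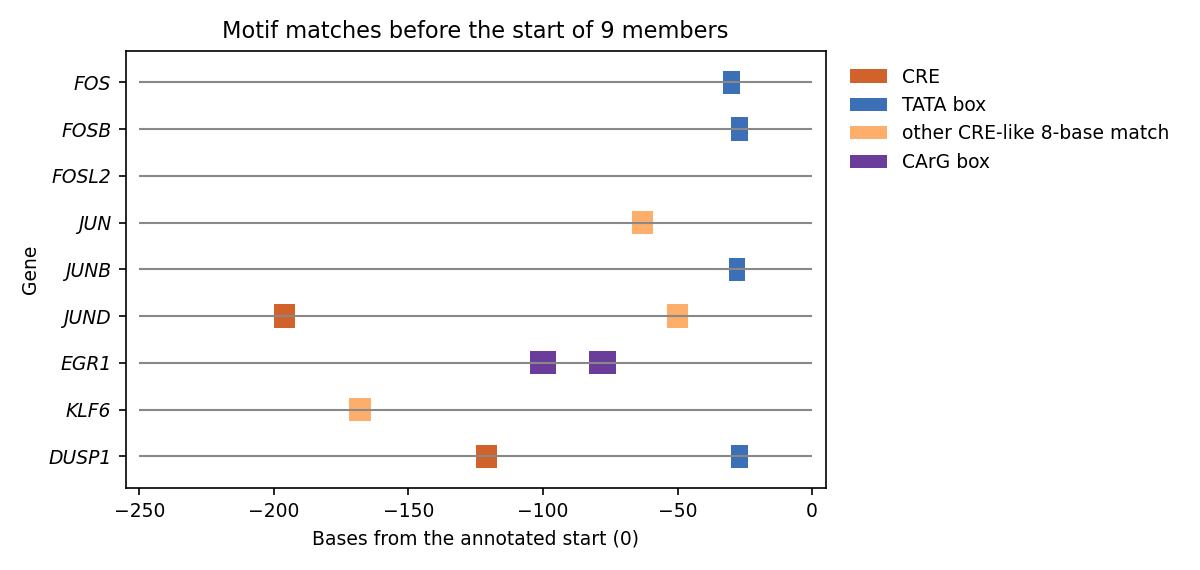
Motif matches in the 250 bases before the start of 9 genes, with the distance from the start in bases on the horizontal axis and 1 line per gene. Coloured boxes mark the CArG boxes of EGR1, the CRE of DUSP1 and JUND, the other 8-base matches of JUN, KLF6 and JUND, and the TATA boxes of FOS, FOSB, JUNB and DUSP1.

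The libraries held 16308476 to 18071632 fragments, worked back from the FPKM, and no pair within a group was a duplicate, with chi-square values of 2.3 to 3.78 per gene within groups and 52.3 to 61.0 between groups. FPKM are fragments scaled by the length of the gene and by the fragments of the library, so levels can be compared between genes as well as between libraries. Differences between treatments were tested by limma on log2(FPKM + 1) for 14400 genes whose mean reached 0.5 FPKM, with Benjamini-Hochberg adjustment over these genes. Genes with an adjusted p of 0.05 or less were called changed, and those that also moved at least 2-fold on the FPKM + 1 scale were called DEGs. On this scale a scarce transcript can move more than 2-fold in FPKM without being a DEG. Plates were separate, but they were of 1 line, so the p-values measure the spread between plates. In bulk RNA, a change in the share of cells that express a gene and a change in RNA per cell cannot be told apart.

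The cells were checked against the label HepG2 through 20 hepatocyte and hepatoma markers. Of these, 11 were in the table and 2 reached 1 FPKM in any library, namely CPS1, an enzyme of the urea cycle, with 106 to 228 FPKM, and RBP4, the plasma carrier of retinol, with at most 1.73 FPKM. HNF4A, the master regulator of hepatocyte identity, had at most 0.106 FPKM, and ALB and AFP were not analysed here. The label is therefore not borne out by these markers, and the cells are called by it only as a name. The summed level of the listed hepatocyte markers was 222 to 229 FPKM in DMSO and 107 to 113 FPKM in PD, nearly all of it from CPS1, and its part in the results was not tested. Among fibroblast markers COL1A1 and PDGFRB reached 1 FPKM, with sums of 4.52 to 5.40 FPKM in DMSO and 4.82 to 5.09 FPKM in PD over 5 listed markers, whereas no endothelial or leukocyte marker did (highest 0.633 FPKM).

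In PD-treated cells JUNB, JUND and DUSP1, which were already the 3 most abundant of the 10 transcripts, rose further, while JUN, FOSL1 and KLF6 fell, their mean in DMSO being 1.30 to 1.46 times that in PD. FOS and EGR1 were scarce in both groups and rose. Of the 9 genes tested, all 9 were called changed, 5 higher and 4 lower, where 58.1% of all tested genes were called (31.9% higher and 26.2% lower). The changes were mostly small, and EGR1 was the only DEG among the 9, a higher one, where 3.61% of all tested genes were DEGs and 2.04% were higher DEGs. The median absolute log2 fold change of the 9 genes was 0.36, against 0.27 over all tested genes, and their median signed change was 0.22, against 0.01. With 5 genes higher and 4 lower, this signed median is the value of JUND, the smallest of the 5 rises. The libraries of PD and DMSO did not overlap in any of the 9 genes, with PD above in 5 and below in 4. Over all tested genes they did not overlap in 65.4%, with PD above in 35.6% and below in 29.9%. FOSB was below the minimum for the test.

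**Figure D2:**
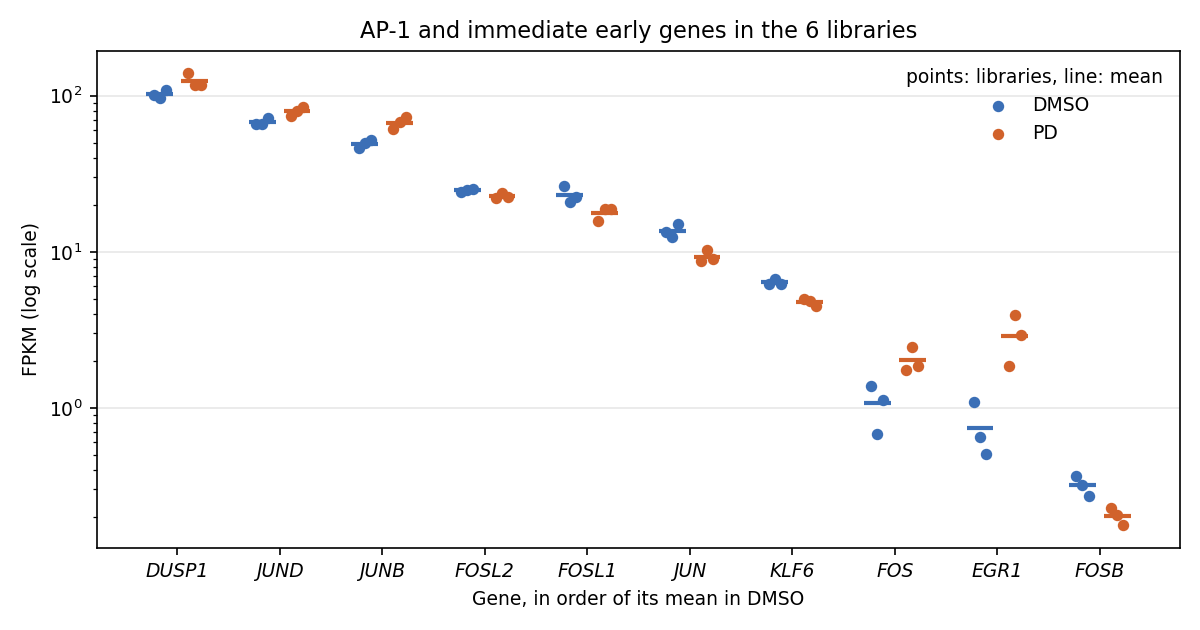
FPKM of the 10 genes on a log axis, with 1 point per library, a line at the mean of each group of 3, and genes in the order of their mean in DMSO. The points run from 139 FPKM for DUSP1 in a PD library to 0.177 FPKM for FOSB, and in every gene the PD points lie all on one side of the DMSO points.

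The 10 genes spanned a wide range of levels, and their order was nearly the same with and without PD. In DMSO the order by mean FPKM was DUSP1, JUND, JUNB, FOSL2, FOSL1, JUN, KLF6, FOS, EGR1 and FOSB. The libraries of neighbouring genes in this order did not overlap, except for FOSL2 with FOSL1 and FOS with EGR1. In PD the same order held except that the mean of EGR1 was above that of FOS, and of the neighbours only EGR1 and FOS overlapped. By mean level, DUSP1 stood at percentile 98.0 of all tested genes, JUND at 96.5 and JUNB at 95.1, whereas EGR1 stood at 24.7 and FOS at 21.3. JUNB and JUND were thus among the more abundant transcripts of these cells, and FOS, the classical partner of JUN, was not.

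Among the JUN family, the 3 members did not move together. JUN (ENSG00000177606) lies on chromosome 1 of GRCh38 from 58776845 to 58784048 on the minus strand and encodes the subunit that most strongly activates AP-1 targets. JUN had 13.3, 12.4 and 15.0 FPKM in DMSO replicates 1, 2 and 3 and 8.75, 10.2 and 9.01 FPKM in PD replicates 1, 2 and 3. All 3 PD libraries were lower than the lowest DMSO library. The mean fell from 13.6 ± 1.29 to 9.32 ± 0.773 FPKM (SD, n = 3 each). The log2 fold change on the FPKM + 1 scale was -0.50 ± 0.08 (SE, limma adjusted p = 0.0013).
JUNB (ENSG00000171223), on chromosome 19 from 12791486 to 12793315 on the plus strand and with 1 exon, encodes a subunit with a weaker activating domain that can hold JUN in check. Its level was 46.1, 49.5 and 52.1 FPKM in DMSO and 60.8, 67.7 and 72.7 FPKM in PD, in the order of the replicates, so that the groups did not overlap. The log2 fold change was 0.44 ± 0.07 (SE, limma adjusted p = 0.0015). An exon of HOOK2 on the opposite strand overlaps JUNB, and the sources used here do not say whether strand was used in counting. HOOK2 itself had 2.05 to 2.1 FPKM in DMSO and 2.29 to 2.61 FPKM in PD. The effect of the overlap on the level of JUNB was not tested.
JUND (ENSG00000130522), the member known for steady expression in resting cells, lies on chromosome 19 from 18279694 to 18281622 on the minus strand and also has 1 exon. JUND had 66.0, 66.1 and 72.0 FPKM in DMSO and 73.7, 79.8 and 85.2 FPKM in PD. The groups did not overlap, but the highest DMSO library was close to the lowest PD library. Its log2 fold change was 0.22 ± 0.06 (SE, limma adjusted p = 0.015).

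In the FOS family the 2 abundant members, FOSL1 and FOSL2, were lower in PD, FOS was higher, and FOSB was too scarce for the test. FOSL1 (ENSG00000175592), on chromosome 11 from 65892049 to 65900573 on the minus strand, encodes FRA-1, which lacks the strong activating domain of FOS and is itself an AP-1 target in many cells. FOSL1 had 26.3, 20.9 and 22.4 FPKM in DMSO and 15.7, 18.8 and 18.8 FPKM in PD. The lowest DMSO library was above both of the higher PD libraries by about 2 FPKM. The log2 fold change was -0.36 ± 0.10 (SE, limma adjusted p = 0.015).
FOSL2 (ENSG00000075426), which encodes FRA-2 and lies on chromosome 2 from 28392448 to 28417317 on the plus strand, had 24.2, 24.9 and 25.2 FPKM in DMSO and 22.2, 23.9 and 22.3 FPKM in PD. All PD libraries were below all DMSO libraries, yet the nearest ones were almost level. Its log2 fold change of -0.12, with an interval of -0.21 to -0.02 at 95% and an adjusted p of 0.045 from limma, was the smallest of the 9. Over 13 alternatives its adjusted p ran from 0.015 to 0.14, and the call was lost in 7 of them. These were the fit with no filter (0.067), the replicate block (0.058) and the omission of any single library other than PD replicate 2.
FOS (ENSG00000170345), the prototype immediate early gene, lies on chromosome 14 from 75278826 to 75282230 on the plus strand. FOS had 1.39, 0.682 and 1.12 FPKM in DMSO and 1.74, 2.45 and 1.86 FPKM in PD, which correspond to 78, 37 and 62 fragments and to 102, 139 and 98 fragments. Each PD library was above each DMSO library, and DMSO replicate 2 was the lowest of all. The mean was 1.89 ± 0.422 times that in DMSO (SE), and on the FPKM + 1 scale, which shrinks the change of a scarce transcript, the log2 fold change was 0.55 ± 0.15 (SE, limma adjusted p = 0.015). Without PD replicate 2 it was 0.45 with an adjusted p of 0.055, and with no filter the adjusted p was also 0.055.
FOSB (ENSG00000125740), on chromosome 19 from 45467995 to 45475179 on the plus strand, is induced like FOS but peaks later. FOSB had 0.365, 0.322 and 0.274 FPKM in DMSO and 0.229, 0.205 and 0.177 FPKM in PD, or 35, 30 and 26 fragments against 23, 20 and 16 fragments. The PD libraries were all below the DMSO libraries, in the opposite direction to FOS. At so few fragments the difference did not pass the threshold where it was tested, with an adjusted p of 0.0503 by limma voom on fragments and of 0.095 by limma with no filter.

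**Figure D3:**
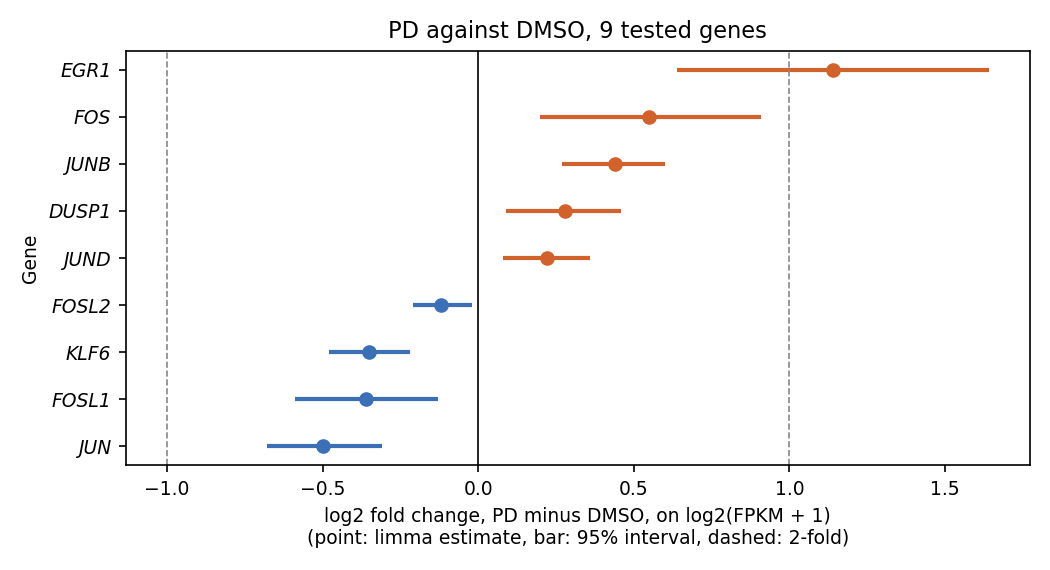
Log2 fold change of PD against DMSO on the FPKM + 1 scale for the 9 tested genes, with the limma estimate as a point, its 95% interval as a bar and dashed lines at 2-fold. No interval crosses 0, the estimates run from -0.50 for JUN to 1.14 for EGR1, and the interval of EGR1 reaches from 0.64 to 1.64.

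Because FPKM are corrected for gene length, the 7 FOS and JUN family transcripts could be set side by side within each library, in a way that no scaling between libraries affects. JUND made up 37.2% to 38.3% of their summed FPKM in DMSO and 39.3% to 40.6% in PD. JUNB made up 25.9% to 28.3% of the sum in the DMSO libraries and 33.2% to 34.6% in the PD libraries, the largest difference of the 7 in percentage points. JUN made up 7.10% to 7.96% in DMSO and 4.29% to 5.02% in PD, and FOSL1 made up 11.9% to 14.8% and 8.58% to 9.27%. FOSL2 was at 13.4% to 14.2% in DMSO and 10.6% to 12.1% in PD. FOS and FOSB were a trace in both groups, with FOS at 0.390% to 0.785% in DMSO and 0.884% to 1.21% in PD and FOSB at no more than 0.205%. For none of the 7 shares did the groups overlap. The shares are parts of 1 sum and so depend on each other, and the FPKM of the 7 genes themselves did not overlap either. Over all tested genes, the FPKM of the groups did not overlap in 65.4%.
The summed FPKM of the JUN family was 125 to 139 in DMSO and 143 to 167 in PD, while that of the FOS family was 46.8 to 52.2 and 39.9 to 45.4. The ratio of JUN family to FOS family transcripts was therefore 2.66 ± 0.228 in DMSO and 3.64 ± 0.205 in PD (SD, n = 3 each). Within the JUN family, the ratio of JUNB to JUN was 3.45, 3.99 and 3.48 in the DMSO libraries and 6.94, 6.64 and 8.07 in the PD libraries. The ratio of FOSL1 to FOSL2 overlapped between groups, at 0.840 to 1.09 in DMSO and 0.708 to 0.845 in PD. These shares and ratios describe transcripts, and protein levels and dimers were not measured in these libraries.

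**Figure D4:**
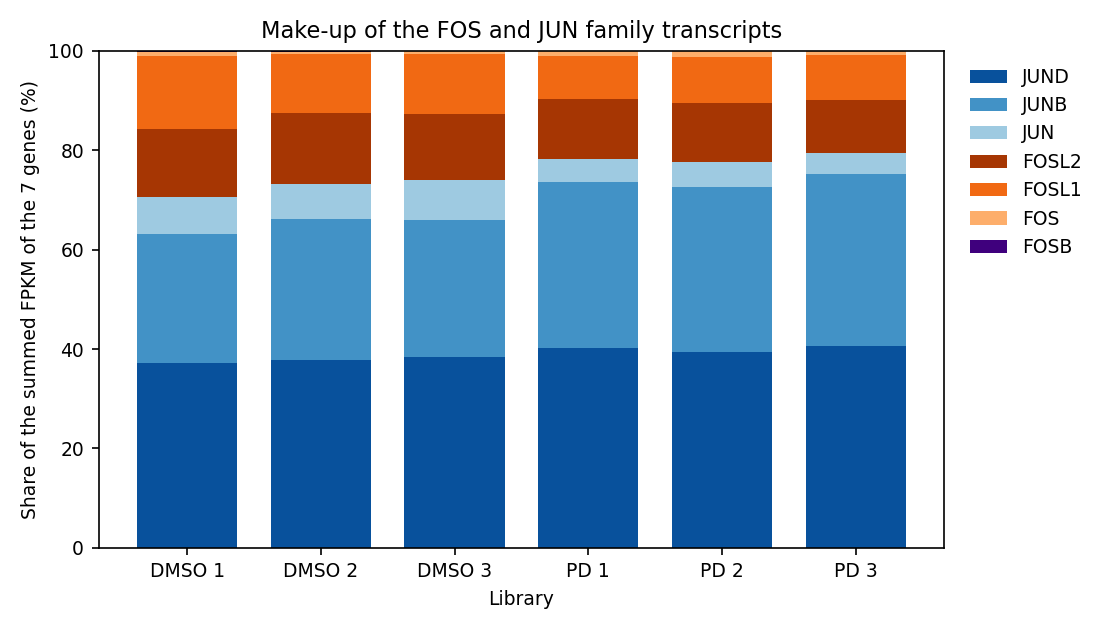
Share of each FOS and JUN family gene in the summed FPKM of the 7 genes, as a percentage, in 1 stacked bar per library. The JUNB band is at most 28.3% in DMSO and at least 33.2% in PD, and the bands of JUN, FOSL1 and FOSL2 are narrower in every PD library than in every DMSO library.

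EGR1 (ENSG00000120738), on chromosome 5 from 138465479 to 138469303 on the plus strand, encodes a zinc finger activator that serum and ERK signals switch on, in part through SRF, and the promoter printed above holds 2 CArG boxes. EGR1 had 1.09, 0.646 and 0.503 FPKM in DMSO and 1.85, 3.95 and 2.91 FPKM in PD, or 59, 34 and 27 fragments against 105, 217 and 149 fragments. The PD libraries were all higher, but they differed among themselves by more than 2-fold, and PD replicate 2 was the highest. The mean rose from 0.746 ± 0.305 to 2.90 ± 1.05 FPKM (SD, n = 3 each), which is 3.89 ± 1.23 times (SE). The log2 fold change on the FPKM + 1 scale was 1.14 ± 0.21 (SE, limma adjusted p = 0.0028). Without PD replicate 2 the rise was 0.95, with an adjusted p of 0.0079, and EGR1 was then no DEG.
The other genes of the EGR family were almost silent, with EGR2, EGR3 and EGR4 under the minimum for the test. NAB2, a corepressor that binds EGR1 and is induced by it, rose from 5.18 ± 0.0372 to 9.82 ± 0.457 FPKM (log2 fold change 0.81, adjusted p 1.3e-05), although exons of STAT6 overlap it on the opposite strand. NAB1, the related corepressor, fell by 0.22 on the log2 scale, with an adjusted p of 0.014 from limma.

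KLF6 (ENSG00000067082), on chromosome 10 from 3775996 to 3785281 on the minus strand, encodes a Krüppel-like factor that is described as a growth suppressor in liver tumours. KLF6 had 6.17, 6.71 and 6.20 FPKM in DMSO and 4.95, 4.86 and 4.49 FPKM in PD. The spread within each group was about 5% of the mean, and the groups were well apart. Its log2 fold change was -0.35 ± 0.06 (SE, limma adjusted p = 0.0013).
Across the KLF family of 17 genes, which includes KLF6, 12 were tested and 7 called, 1 of them higher and 6 lower. The share called, 58.3%, was close to that of all tested genes (58.1%, with 31.9% higher and 26.2% lower). The largest falls on the log2 scale were those of KLF4 (-0.47), KLF7 (-0.40) and KLF6, and exons of KLF4 and KLF7 overlap genes on the opposite strand. KLF2, a factor induced by fluid flow and by the MEK5 and ERK5 kinases in endothelium, was the exception and rose from 3.17 ± 0.358 to 10.4 ± 1.46 FPKM, a log2 fold change of 1.45.

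DUSP1 (ENSG00000120129), on chromosome 5 from 172768096 to 172771195 on the minus strand, was the most abundant of the 10 genes. DUSP1 had 101, 96.4 and 109 FPKM in DMSO and 139, 117 and 117 FPKM in PD. All PD libraries were higher, and PD replicate 1 stood above the others. The log2 fold change was 0.28 ± 0.08 (SE, limma adjusted p = 0.018). It was 0.19 without PD replicate 1 with an adjusted p of 0.027, whereas the adjusted p was 0.056 without DMSO replicate 2 and 0.059 with no filter.
Among the 10 MAP kinase phosphatases, DUSP1 included, 7 were called, 5 higher and 2 lower, which is 70.0% of them beside 58.1% of all tested genes (31.9% higher and 26.2% lower), the median log2 fold change being 0.24. DUSP5 and DUSP6, nuclear and cytoplasmic phosphatases of ERK that are themselves ERK-induced, rose by 1.57 and 0.77. DUSP5 went from 2.54 ± 0.328 to 9.56 ± 1.54 FPKM and DUSP6 from 0.615 ± 0.141 to 1.75 ± 0.248 FPKM, and an exon on the opposite strand overlaps DUSP6. DUSP7, another ERK phosphatase, rose by 0.53. DUSP8 and DUSP16, which prefer JNK and p38, fell by 0.80 and 0.77 on the log2 scale, with adjusted p of 5.6e-05 and 9e-06 from limma.

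The wider set of immediate early genes did not move as a block. Of 37 listed genes, 34 were tested, and 10 were higher and 12 lower at the adjusted p, a share of 64.7% beside 58.1% of all tested genes, the median log2 fold change being 0.06. The largest rises were those of DUSP5, KLF2 and the antiproliferative gene BTG1 (0.91). The largest falls were those of CCN1 (-1.26), which encodes a secreted matrix protein, NFKBIA (-1.16), which encodes the inhibitor of NF-kB, and MYC (-0.95). CCN1 went from 75.5 ± 9.80 to 30.7 ± 2.05 FPKM, NFKBIA from 41.3 ± 1.81 to 18.1 ± 3.05 FPKM and MYC from 216 ± 19.6 to 112 ± 10.2 FPKM (SD, n = 3 each). BTG1 and MYC overlap exons of noncoding genes.

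Of 17 other bZIP genes whose products can pair with FOS or JUN proteins or compete for their sites, 11 were tested, and 3 were higher and 3 lower, so that 54.5% were called beside 58.1% of all tested genes. CREM, a CRE-binding factor, rose by 0.79 from 9.89 ± 0.814 to 17.7 ± 0.990 FPKM, and ATF7 (0.30) and JDP2 (0.17) also rose, the call of JDP2 being lost without PD replicate 3 (limma adjusted p = 0.059). NFE2L2, the master regulator of antioxidant genes, fell by 0.88, and the small MAF genes MAFK and MAFF, whose proteins are its partners, fell by 0.73 and 0.62. Exons of all 6 genes overlap those of other genes. ATF3, an immediate early bZIP gene, had 20.6 ± 1.39 FPKM in DMSO and 21.4 ± 0.461 FPKM in PD and did not pass the test.

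Upstream of the 10 genes, 17 of 20 ERK, JNK and p38 pathway kinase genes were tested, and 7 were higher and 1 lower, so that 47.1% were called, less than the 58.1% of all tested genes (31.9% higher and 26.2% lower). RPS6KA1, the ERK-activated kinase RSK1, rose by 0.75 from 9.39 ± 0.327 to 16.4 ± 0.454 FPKM, followed by the p38 gene MAPK11 (0.34) and the p38 substrate kinase gene MAPKAPK2 (0.29). MAP2K6, an activator of p38, fell by 0.57 on the log2 scale. Of 11 genes for factors that switch on immediate early promoters, 10 were tested, and 2 were higher and 4 lower, a share of 60.0% beside the 58.1% of all tested genes. ELK3 (0.56) and ELK1 (0.20), partners of SRF, rose, while the CRE-binding factor ATF1 (-0.96), the SRF coactivator MRTFA (-0.42) and MEF2D (-0.25) had the largest falls. SRF itself was the other gene called lower, from 28.2 ± 1.5 to 23.6 ± 1.21 FPKM (log2 fold change -0.24, limma adjusted p = 0.0057). Exons of other genes overlap ELK3 and MRTFA. Among the 4 ubiquitin ligase genes whose products degrade JUN, ITCH, which shares exons with a noncoding gene, fell by 0.42, and FBXW7 and DET1 did not pass the test. COP1 was called at 0.14 with a limma adjusted p of 0.039, but the call was lost in 9 of 13 alternatives, where the adjusted p reached 0.14. These were the fit with no filter, the replicate block, both scalings and the omission of any library other than PD replicate 3.

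Genes commonly described as AP-1 targets changed in both directions. Of 23 listed, 16 were tested and 15 called, 6 higher and 9 lower, which is 93.8% of them beside 58.1% of all tested genes. Of these 15, however, CXCL8, IL6, CCL2, IL11 and AREG reached the minimum of 0.5 FPKM in 1 group only, so that they entered the test through the group in which they were higher. Of the 11 that reached it in both groups 10 were called (90.9%), 4 higher and 6 lower, the median log2 fold change being -0.30. Among the 13527 tested genes that did so, 58.7% were called, 4410 being higher and 3537 lower, with a median of 0.02. The largest falls in the list were those of EDN1 (-2.78), CXCL8 (-2.54) and IL6 (-2.02), inflammatory or vasoactive genes that other factors also control. Of these 3, EDN1 reached the minimum in both groups and CXCL8 and IL6 in DMSO only. In PD, CXCL8 had 9 to 20 fragments per library and IL6 had 6 to 10. CXCL8, which encodes interleukin 8, went from 6.84 ± 1.69 to 0.336 ± 0.176 FPKM and IL6 from 3.89 ± 0.207 to 0.207 ± 0.0771 FPKM (SD, n = 3 each), and exons of other genes overlap IL6 on the opposite strand. HBEGF, a ligand of the EGF receptor, rose by 0.96, IL11 by 0.89 and the urokinase receptor gene PLAUR by 0.49. IL11 had 0.388 ± 0.0740 FPKM in DMSO. The matrix metalloproteinase genes of the list were not tested, MMP1, MMP9 and MMP13 being near 0 in all libraries and MMP3 and MMP10 not analysed here.

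**Figure D5:**
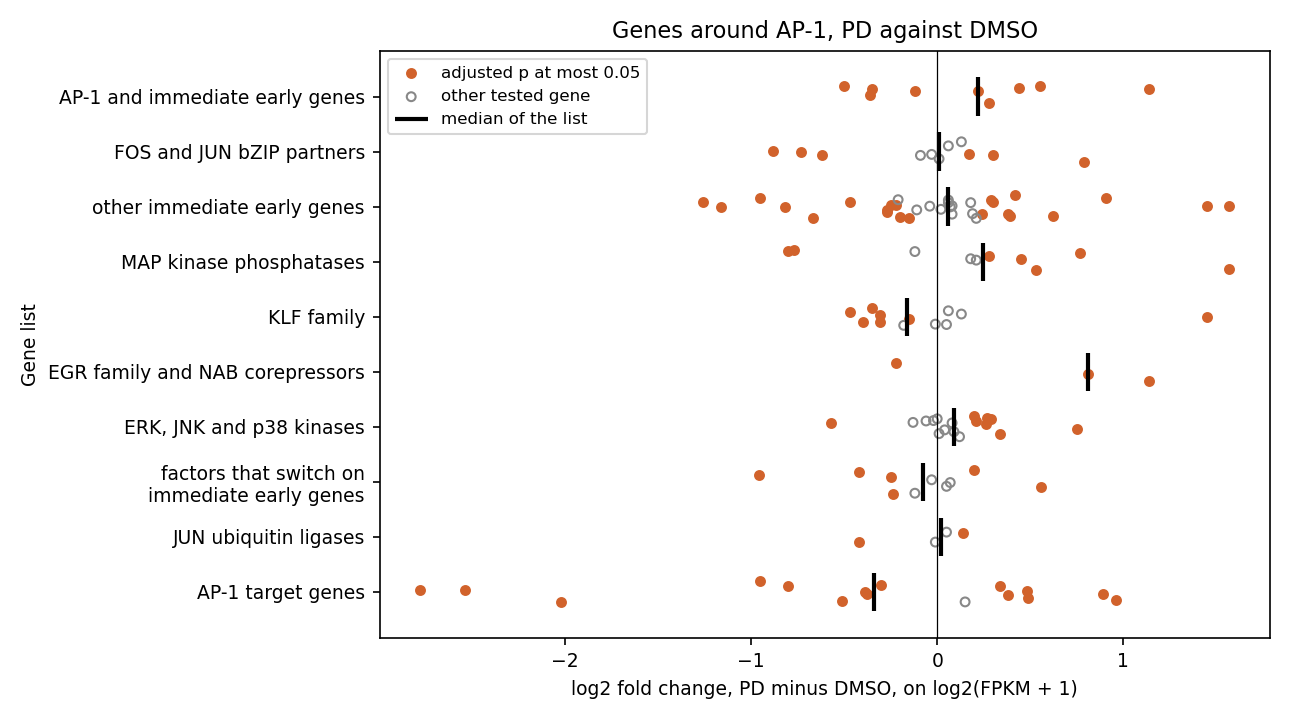
Log2 fold change of PD against DMSO on the FPKM + 1 scale for the tested genes of each list, with filled points for an adjusted p of at most 0.05, open points for the others and a bar at the median of the list. The medians run from -0.34 for the AP-1 target genes to 0.81 for the 3 tested genes of the EGR and NAB list, and every list has genes on both sides of 0. Of the AP-1 target genes shown, 5 reached the minimum level in 1 group only, and the EGR and NAB list includes EGR1.

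The motifs searched were also counted over the 7052 tested genes with exactly 1 promoter in the RefSeq table, 36.8% of them being higher in PD and 26.0% lower. Among 240 genes with a CRE, 31.7% were higher and 32.1% lower, and among 80 genes with TGACATCA, 28.7% were higher and 33.8% lower. The looser TGANNTCA was held by 523 genes, of which 30.0% were higher and 31.9% lower. JUND and DUSP1, which hold a CRE, rose, and JUN and KLF6, which hold TGACATCA, fell. JUND also holds TGAGCTCA, and a link between motif and direction was not tested. TGANNTCA and TGACATCA were added after the values of these genes were seen, so the contrast between the 4 genes is a description only. Among 56 genes with a CArG box, 41.1% were higher and 35.7% lower, and the motifs found in none of the 9 windows gave 40.2% higher and 23.0% lower for 87 genes with an EGR site and 32.9% and 30.1% for 246 genes with a TRE. Genes with TATAAA anywhere in the window, on either strand, were higher in 29.0% and lower in 34.6% of 341 cases. These shares are counts over genes, with no test.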

How the data were processed

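Poly(A) RNA of 6 plates was made into libraries with the NEBNext Ultra kit, and per the labels and methods the authors used HISAT2 for alignment to hg38 and HTSeq 0.6.0 for counting, and deposited FPKM, 1 column per library. Whether strand was used in counting is not given in the sources used here. The fit was limma 3.58.1 (R 4.3.3) with a mean-variance trend and no covariate, on log2(FPKM + 1) of the 14400 genes whose average over 6 libraries reached 0.5 FPKM, where the study had run a count model on its counts. The pseudocount of 1 understates the change of scarce transcripts. Whole fragments were worked back from the FPKM for all 28563 genes, 12772 of them with the exon length of GENCODE release 44, and served for depth and for limma voom. Standard deviations are over 3 plates. Alternatives were a pseudocount of 0.1, no filter, a minimum of 1 FPKM, the replicate number as a block, 2 scalings, voom on genes with at least 10 fragments in 3 libraries, limma treat, and leaving out each library. The fits were tested on simulated data. Named genes are the 10 members and, of each list, up to 3 rises and 3 falls past the adjusted p of 0.05. ATF3, CCL2, AREG, SRF, the genes of the lists named as not passing the test or not tested, and the motifs TGANNTCA and TGACATCA were chosen after values were seen. The members, the gene lists and the tests were chosen with earlier results of these data known.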

Additional observations from a re-analysis of the deposited data

How the results depend on the processing

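Of the 9 tested members, JUN, JUNB, JUND, FOSL1, EGR1 and KLF6 kept their direction and an adjusted p of at most 0.05 in each of 13 alternatives, whereas FOS and DUSP1 passed in 11 and FOSL2 in 6 (limma). No direction of a member was reversed. With no filter on FPKM, 3 members were higher instead of 5 and 3 lower instead of 4. The calls lost were those of FOS, DUSP1 and FOSL2, with limma adjusted p of 0.055, 0.059 and 0.067, and the cause was not tested. EGR1 was the only member called as a DEG, and this count was 0 to 1 over the fits that omitted 1 library, 0 being without PD replicate 2. By limma treat for a change beyond 2-fold 0 members were called, 0 had an unadjusted p under 0.05, and the lowest unadjusted p was 0.27. Over all tested genes, 520 DEGs became 1248 with a pseudocount of 0.1, 1735 with voom on fragments and 101 with treat. For the JUN ubiquitin ligases, 1 gene was called instead of 2 with no filter, with the replicate block, and with median-of-ratios and upper quartile scaling, and 1 to 2 when each library was left out. Same-numbered libraries did not deviate together, with correlations of -0.027 to 0.0898, so the numbers do not pair the plates. With the replicate block 5 members were higher and 3 lower, FOSL2 being the one lost. Scaling by median-of-ratios or upper quartile left 5 members higher and 4 lower and moved the median of all genes by less than 0.1 on the log2 scale. FOSB, FOS and EGR1 had the fewest fragments of the members, at 16 to 217 per library. The SD between plates of EGR1 was 40.9% of the mean in DMSO and 36.1% in PD. It was 33.7% and 18.8% for FOS and 14.2% and 12.9% for FOSB. How much of this spread came from the depth was not tested.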
